A study of Mus musculus with 12 samples.

Results

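The genes described here are 9 hormone receptors, regulators and secreted products of the mammary gland: Esr1, Pgr, Prlr, Gata3, Elf5, Cited1, Csn2, Wap and Ltf. They were chosen by name, as every probe that the array files label with one of these symbols. The search found 15 probes, among 41174 probes on the array that stand for 22401 named genes. The files label 8 of the 9 genes by the symbol above and give Csn2 under its older name Csnb, so its probe was found through its transcript accession. The probes are oligonucleotides of 60 bases, and a gene with several probes is reported probe by probe.

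The arrays were hybridised with RNA from C57MG, an established mouse mammary epithelial line that is grown in serum and insulin. Before treatment the cells were moved to DMEM without supplements, so all groups lacked serum and added insulin, and no lactogenic hormone is named for any group. The cells then received, for 24 h, the carrier protein BSA, recombinant human Rspo2 at 100 ng/ml, recombinant mouse Wnt3a at 100 ng/ml, or both proteins at these doses. Each of the 4 groups holds 3 arrays, labelled as biological replicates, and all come from the same cell line. The study describes the replicates as triplicate monolayers and names no repeat of the array experiment. The spread between arrays is thus that between cultures. Rspo2, a secreted R-spondin, potentiates signaling by Wnt proteins such as Wnt3a, and the comparisons ask what each protein and the pair did to transcript levels.

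In the mammary gland, estrogen acts through the receptor encoded by Esr1 and induces the progesterone receptor Pgr in luminal cells. Prolactin acts through Prlr and the kinase Jak2 to activate Stat5, which together with the ETS factor Elf5 drives alveolar cells to make milk proteins, of which beta-casein (Csn2) and whey acidic protein (Wap) are the classical markers. Gata3 maintains the luminal fate, Cited1 is a co-activator that binds the estrogen receptor, and Ltf encodes lactoferrin, an iron-binding antimicrobial protein of milk and neutrophils.

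The 12 arrays differed moderately in quality. The share of probes well above background lay between 51.28% and 64.17%. The 75th percentile of the processed signal, by which each array was scaled, lay between 773.9 and 1146 intensity units. The lowest signal that counted as well above background ranged from 15.44 to 43.75 units, so a dim probe was harder to detect on some arrays than on others. The 3 slides did not hold the groups evenly: slide 1 held all BSA arrays and Rspo2 replicate 1, slide 2 held the other Rspo2 arrays and Wnt3a replicates 1 and 2, and slide 3 held the rest.

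Detection asked that all 3 arrays of some group carry the scanner's flag for a spot well above its background. By this rule 4 of the 9 genes were detected: Esr1 (2 of 2 probes), Gata3 (1 of 1), Cited1 (1 of 1) and Prlr (1 of 3). This made 5 of the 15 probes, beside 22751 of 41174 probes over the whole array. Pgr, Elf5, Csn2 and Ltf were not well above background on any of the 12 arrays, with any of their probes. Wap passed on 2 of 12 arrays with 1 of its 2 probes and did not meet the rule. With the scanner's looser mark for a positive and significant signal, that Wap probe also passed, which gave 5 of 9 genes. The 9 probes that never passed had a median signal of 8.89 units on the BSA arrays and 7.38, 5.03 and 5.19 units on those treated with Rspo2, Wnt3a and the pair, with extremes of 3.13 and 44.9. Of these 108 signals all but 1 lay below the lowest signal accepted as detected on their array, so differences between the groups in this range carry no order.

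**Figure D1:**
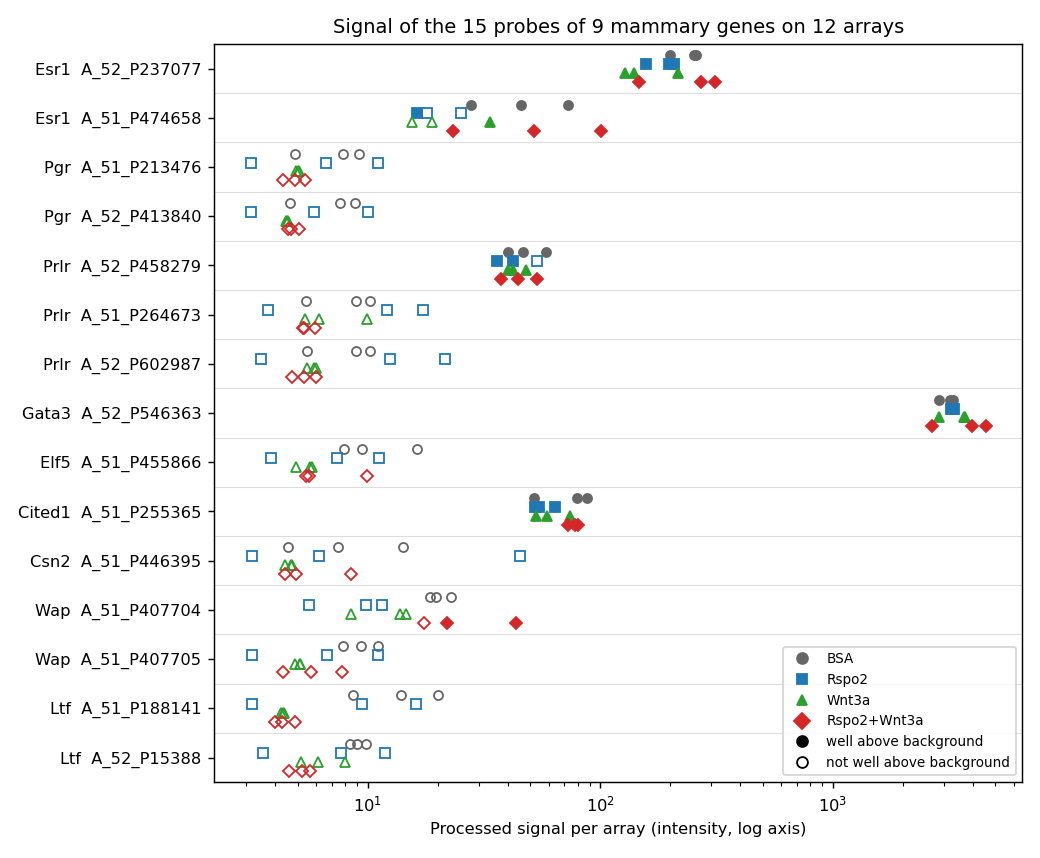
Processed signal (intensity, log axis) of each of the 15 probes on the 12 arrays, coloured by group, with filled symbols where the spot was well above background and open symbols where it was not. Points compare arrays within a probe and not 1 probe with another. Filled symbols fill the rows of Gata3, Cited1 and 1 Esr1 probe, while the rows of Pgr, Elf5, Csn2 and Ltf hold open symbols alone.

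None of the 5 detected probes passed the test in any comparison. A change was called by limma at a Benjamini-Hochberg adjusted p under 0.05, over all 22751 detected probes, together with a difference of at least 2-fold. With Rspo2 against BSA 0 of 5 probes were called, beside 0.721% of all detected probes. With Wnt3a against BSA it was 0 of 5 beside 2.52%, and with both proteins against BSA 0 of 5 beside 5.08%. The step from Wnt3a to both proteins gave 0 of 5 beside 0.747%, and the interaction, which asks whether the effect of the pair differed from the sum of the separate effects, gave 0 of 5 beside 1.93%. Without the 2-fold limit the counts were again 0 of 5 in each comparison, beside 16.8%, 31.5%, 39.2%, 4.27% and 8.9% of all detected probes in the same order. With only 5 probes, these counts alone do not set the genes apart from the rest.

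At an unadjusted p under 0.05 limma gave 1 of the 5 probes with Wnt3a (Gata3), 1 in the interaction (Esr1 A_51_P474658) and 0 in the other comparisons, beside 35%, 43%, 47.9%, 18.4% and 29.3% of all detected probes. The arrays of the groups compared did not overlap for 1 of 5 probes with Rspo2, 2 with Wnt3a, 0 with both proteins and 1 between both proteins and Wnt3a, beside 43.5%, 45.5%, 54% and 21.4% of all detected probes. The methods' t-test at an unadjusted p under 0.05 with the 2-fold limit gave 0 of 5 against BSA with Rspo2, Wnt3a and both proteins, and 0 of 5 between both proteins and Wnt3a, beside 0.598%, 2.08%, 4.58% and 0.883% of all detected probes. After Benjamini-Hochberg adjustment it again gave 0 of 5 in these comparisons, beside 0.00879%, 0.725%, 3.04% and 0.0483%. The median log2 difference of the 5 probes was -0.09 with Rspo2, 0.14 with Wnt3a and 0.21 with both, while the median over all detected probes was 0.013, 0 and 0.043. The 3 comparisons with BSA share the BSA arrays. In these cultures, fewer cells that express a gene and less of its RNA per cell cannot be told apart.

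**Figure D2:**
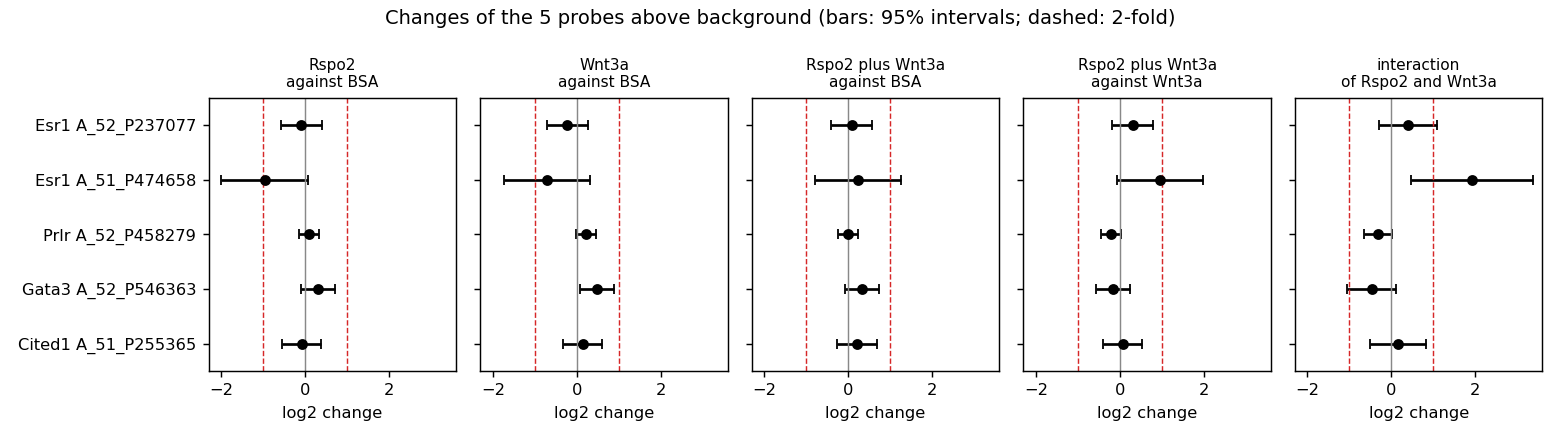
Log2 change (points) with its 95% interval (bars) for the 5 detected probes in the 5 comparisons, with dashed lines at 2-fold in either direction. The intervals of Prlr lie inside the dashed lines in every panel, and those of the dim Esr1 probe A_51_P474658 cross a dashed line in every panel.

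Esr1, the estrogen receptor, was the only receptor of the sex steroids found above background among these genes. Its probe A_52_P237077 is printed 10 times on each array and was detected on 12 of 12 arrays. It read 200, 252 and 258 units on the BSA arrays, 207, 198 and 157 with Rspo2, 215, 140 and 128 with Wnt3a, and 147, 270 and 312 with both proteins. The groups overlapped in every pair, and the arrays with both proteins held the highest readings as well as a low reading of 147. On the log2 scale relative to the 75th percentile the differences from BSA were -0.09 with Rspo2 (SE 0.222), -0.23 with Wnt3a and 0.08 with both, with adjusted p between 0.461 and 0.807. The 95% interval of the Rspo2 difference, -0.58 to 0.39, leaves out a 2-fold change in either direction, as do those for Wnt3a (-0.72 to 0.26) and both proteins (-0.41 to 0.57). These intervals use 1 spread shared by the groups. The SD was 0.511 with both proteins and 0.091 with BSA, so the interval for both proteins may be too narrow. Over the settings run, the difference with Wnt3a lay between -0.39 and 0.10, and that with both proteins between -0.09 and 0.41. No slide held BSA arrays beside arrays with Wnt3a or both proteins.

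The replicate spots give the noise of printing and reading within an array, and do not cover differences in labelling or hybridisation between arrays. Within an array the coefficient of variation over the spots of this Esr1 probe was 3.12% to 10.2% (median 4.96%), with 4 spot values left out for uneven or outlying pixels. Between the arrays with both proteins, by contrast, the mean signal differed between 147 ± 7.46 and 312 ± 9.76 units (SD over 10 spots each).

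The other Esr1 probe, A_51_P474658, was dimmer and less steady. It read 27.7, 45.5 and 72.5 units with BSA, 17.9, 25.2 and 16.3 with Rspo2, 33.6, 18.9 and 15.4 with Wnt3a, and 23.2, 51.6 and 101 with both proteins. The flag for a signal well above background was set on 3 of 3 arrays with BSA and with both proteins, but on 1 of 3 with Rspo2 and 1 of 3 with Wnt3a. The Rspo2 arrays all lay below the BSA arrays, as 43.5% of all detected probes also showed in one direction or the other, and the log2 difference of -0.97 (SE 0.465, 95% interval -2.00 to 0.05) had an adjusted p of 0.164. It was 0.27 after normexp correction and -0.16 with no background correction. Within slide 1, the only slide with both groups, the difference was -1.28 from 1 Rspo2 array. With Wnt3a the difference was -0.72 (adjusted p 0.265), and with both proteins 0.24 (adjusted p 0.722).

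The interaction of the dim Esr1 probe was the largest estimate among the detected probes of these genes, at 1.93 on the log2 scale (SE 0.657, 95% interval 0.48 to 3.38, adjusted p 0.0865). The step from Wnt3a to both proteins was 0.95 (adjusted p 0.306), and 1.40 within slide 3, where 1 Wnt3a array stood beside the 3 arrays with both proteins. With slide as a fixed term the interaction was 2.68 (adjusted p 0.248). It depended on how background was treated, since it was -0.04 after normexp correction and 0.41 with no correction. Without replicate 1 of the group with both proteins it was 2.44 with an adjusted p of 0.0285, the only setting of those run in which a detected probe of these genes passed the call. The adjusted p over all settings ran from 0.0285 to 0.99. The brighter Esr1 probe gave 0.40 for the same interaction (adjusted p 0.417).

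Both Esr1 probes nevertheless moved together from array to array. Over the 12 arrays the Pearson correlation of their log2 values was 0.821 (permutation p 0.00099, adjusted 0.0099 over 10 pairs of detected probes) and Spearman's rho 0.818 (permutation p 0.00185, adjusted 0.0185). It was 0.789 without the 2 arrays farthest from the median, and 0.884 after each group's mean was taken off. The 2 Esr1 probes share their target and the arrays' scaling. In the other pairs of detected probes the adjusted permutation p was 0.748 or more.

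**Figure D3:**
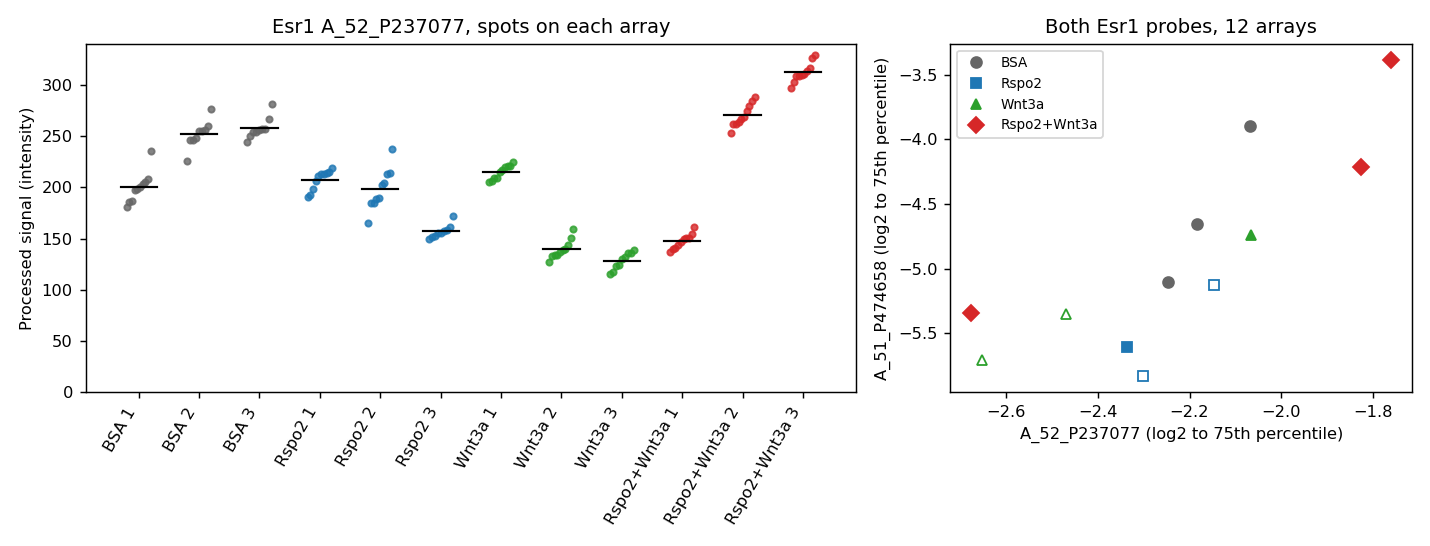
Left, processed signal (intensity) of the single spots of Esr1 probe A_52_P237077 on each array, with the array mean as a line. Right, log2 signal relative to the 75th percentile of that probe against Esr1 probe A_51_P474658 over the 12 arrays, open where the dimmer probe was not well above background. The spots of replicate 1 with both proteins (mean 147) lie apart from those of the other arrays of that group (means 270 and 312), and both probes are low on replicate 1 and high on replicates 2 and 3 with both proteins.

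Pgr, the progesterone receptor and a classical target of the estrogen receptor, was not detected. Its probe A_51_P213476 read 4.84, 9.12 and 7.83 units with BSA, 11.1, 6.57 and 3.13 with Rspo2, 5.01, 5.03 and 4.89 with Wnt3a, and 4.31, 4.84 and 5.38 with both proteins. Its probe A_52_P413840 gave readings from 3.13 to 9.96. None of these signals was well above background, so Pgr has only an upper bound in all groups and no fold was computed.

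Prlr, the receptor of prolactin, was detected with 1 of 3 probes. Probe A_52_P458279 read 40.2, 58.4 and 46.3 units with BSA, 53.3, 42 and 35.9 with Rspo2, 48.1, 40.1 and 41.9 with Wnt3a, and 37.2, 44.1 and 53.6 with both proteins. It passed the background flag on 11 of 12 arrays. The exception was Rspo2 replicate 1, where its 53.3 units lay above the lowest signal accepted on that array, 43.75. Why it failed there was not tested. After scaling, the Wnt3a arrays all lay above the BSA arrays, which 45.5% of all detected probes also did in one direction or the other, by 0.22 on the log2 scale (SE 0.108, adjusted p 0.15). The difference was 0.10 with Rspo2 (adjusted p 0.556) and 0.00 with both proteins (95% interval -0.24 to 0.24). The step from Wnt3a to both proteins was -0.22 (95% interval -0.45 to 0.02, adjusted p 0.315). The intervals of all 4 differences leave out a 2-fold change of the signal of this probe. They hold for 1 choice of background and scaling. Over the settings run, the Wnt3a difference lay between -0.28 (normexp correction) and 0.63 (quantile normalization). With both proteins it lay between -0.41 and 0.28 under the same settings, and with Rspo2 it reached 0.49 after normexp correction. No slide held BSA arrays beside arrays with Wnt3a or both proteins. The other Prlr probes, A_51_P264673 and A_52_P602987, stayed between 3.46 and 21.5 units and were not above background on any array. Which transcript forms of Prlr each probe matches is not analysed here.

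Gata3, a zinc finger transcription factor of luminal cells, was clearly expressed. Its probe A_52_P546363 passed on 12 of 12 arrays and read 3280, 3210 and 2860 units with BSA, 3250, 3330 and 3220 with Rspo2, 3680, 3710 and 2870 with Wnt3a, and 3960, 2660 and 4550 with both proteins. All 12 arrays placed it above the 75th percentile of their probes, by 1.40 to 2.26 on the log2 scale. With Wnt3a it was 0.48 higher than with BSA (SE 0.185, 95% interval 0.08 to 0.89, or 1.4-fold), and after scaling the arrays of the groups did not overlap, but the adjusted p was 0.0683. The difference was 0.31 with Rspo2 (adjusted p 0.255) and 0.32 with both proteins (adjusted p 0.191). The interaction was -0.47 (adjusted p 0.253).

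The value of Gata3 with Wnt3a moved with the scaling and with the slides. Scaling to the median of each array, which raised the median of all detected probes by 0.327 in this comparison, gave 0.81 (adjusted p 0.00368), still under 2-fold. With slide as a fixed term the difference was 0.29 (adjusted p 0.745), and no slide held both Wnt3a and BSA arrays. Within slide 1 Rspo2 and BSA differed by 0.11, and within slide 3 both proteins and Wnt3a by 0.05. Over all settings run, the Wnt3a difference lay between 0.29 and 0.81, with adjusted p from 0.00368 to 0.745.

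Cited1, the co-activator, was detected on 12 of 12 arrays at low signal. Its probe A_51_P255365 read 79.5, 51.9 and 87.6 units with BSA, 64.1, 52.4 and 54.2 with Rspo2, 58.9, 53 and 74 with Wnt3a, and 77.8, 72.6 and 80.1 with both proteins. The groups overlapped in all comparisons. The log2 differences from BSA were -0.09 with Rspo2, 0.14 with Wnt3a and 0.21 with both proteins (SE 0.212 each), with adjusted p between 0.473 and 0.798. The signs of these differences changed under some settings, among them normexp correction for Rspo2 and Wnt3a and slide as a fixed term for Wnt3a and both proteins.

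**Figure D4:**
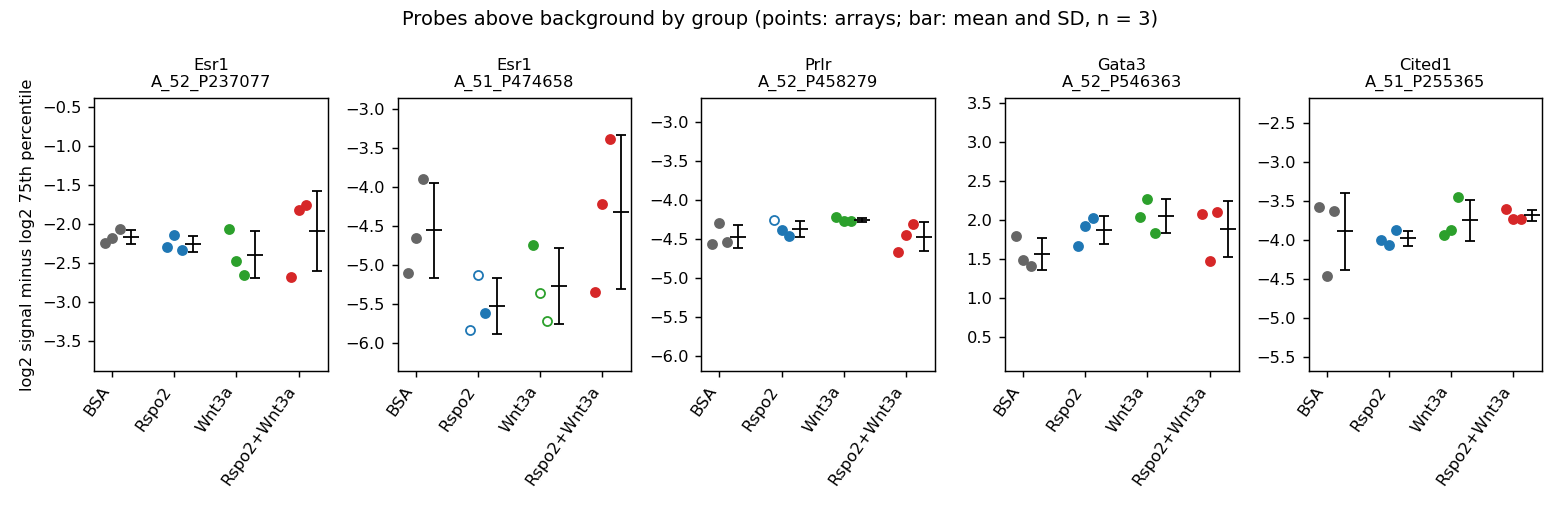
Log2 signal relative to the 75th percentile of each array for the 5 detected probes, by group, with points for arrays (open where not well above background) and bars for the mean and SD of 3 arrays. Each panel spans the same height, so the wide scatter of Esr1 probe A_51_P474658 and the narrow scatter of Prlr can be compared directly.

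Elf5, the ETS factor of alveolar progenitors, was not detected. It read 16.3, 9.47 and 7.92 units with BSA, 11.2, 7.38 and 3.83 with Rspo2, 5.61, 5.74 and 4.9 with Wnt3a, and 9.94, 5.56 and 5.4 with both proteins. None of these passed the background flag.

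The milk protein genes were at or near background. Csn2, beta-casein, read 4.55, 14.1 and 7.41 units with BSA, 44.9, 6.15 and 3.18 with Rspo2, 4.73, 4.68 and 4.38 with Wnt3a, and 8.46, 4.4 and 4.92 with both proteins. The reading of 44.9 on Rspo2 replicate 1 stood apart from the others but was not well above background on that array, whose lowest accepted signal was 43.75.

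Wap, whey acidic protein, is represented by 2 probes. Probe A_51_P407704 read 22.8, 18.4 and 19.6 units with BSA, 9.77, 5.55 and 11.5 with Rspo2, 13.7, 8.49 and 14.6 with Wnt3a, and 21.8, 43.5 and 17.4 with both proteins. It was well above background on replicates 1 and 2 with both proteins and nowhere else. The mean with both proteins was 1.06-fold the lowest accepted signal of the Wnt3a arrays. This is no firm bound, since replicate 3 with both proteins was itself not well above background. No fold could be given against BSA, where the lowest accepted signal exceeded that mean. As an undetected probe it was not tested. Probe A_51_P407705 stayed between 3.16 and 11.1 units and never passed, so the pair of Wap probes disagree on the arrays with both proteins. A weaker criterion, the scanner's mark for signal significantly above 0, was met by probe A_51_P407704 on 11 of 12 arrays.

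The 250 bases before the RefSeq starts of these genes are shown for Csn2, Prlr and Elf5, where they hold a motif of the prolactin or the Wnt pathway, and for Wap, where they hold neither. The build is GRCm38.p6, the sequences run 5′ to 3′ on the strand of the gene, and all 9 genes matched, with 15 annotated starts among them. Capitals mark TTCNNNGAA, the palindromic motif bound by Stat proteins, and CTTTGAT on either strand, a core motif of the TCF and LEF factors through which Wnt3a acts. These motifs do not overlap each other here.
Csn2, chr5:87699426-87699675, minus strand: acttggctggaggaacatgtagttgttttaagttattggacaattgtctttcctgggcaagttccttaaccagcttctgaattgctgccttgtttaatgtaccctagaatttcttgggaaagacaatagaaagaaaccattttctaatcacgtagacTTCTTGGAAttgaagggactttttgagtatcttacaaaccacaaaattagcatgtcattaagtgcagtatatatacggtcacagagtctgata
Wap, chr11:6638650-6638899, minus strand: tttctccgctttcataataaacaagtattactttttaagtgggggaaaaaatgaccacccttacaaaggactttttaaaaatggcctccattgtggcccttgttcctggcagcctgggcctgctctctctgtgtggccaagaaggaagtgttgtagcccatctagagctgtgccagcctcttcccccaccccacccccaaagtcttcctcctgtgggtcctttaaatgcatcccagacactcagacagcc
Prlr, the start at the end of chr15:10223656-10223905, plus strand: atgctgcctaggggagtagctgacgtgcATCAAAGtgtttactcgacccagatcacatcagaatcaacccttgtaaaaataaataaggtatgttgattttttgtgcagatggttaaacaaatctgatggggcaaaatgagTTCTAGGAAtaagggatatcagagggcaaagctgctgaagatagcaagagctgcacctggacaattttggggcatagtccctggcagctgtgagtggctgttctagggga
Elf5, the start at the end of chr2:103423818-103424067, plus strand: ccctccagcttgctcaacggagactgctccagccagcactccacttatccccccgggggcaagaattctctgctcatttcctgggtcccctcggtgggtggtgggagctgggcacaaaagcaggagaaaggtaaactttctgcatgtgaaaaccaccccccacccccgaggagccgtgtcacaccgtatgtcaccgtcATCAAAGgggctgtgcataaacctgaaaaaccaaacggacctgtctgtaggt

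In Csn2 the Stat motif lies at bases -93 to -85 from the start. The Prlr start shown holds it at -110 to -102 and the TCF motif at -222 to -216, and 1 of the 2 Esr1 starts also holds the Stat motif. The Elf5 start shown holds the TCF motif at -52 to -46, while the other Elf5 start and the other Prlr starts hold neither motif. No match of either motif lies in the Wap window. Of the 15 starts of these genes 3 hold TTCNNNGAA and 2 hold CTTTGAT. Among all 32851 mouse starts in the same table, 7.02% hold TTCNNNGAA and 3.21% hold CTTTGAT in this window, and AGGTCA on either strand, the core hexamer bound by nuclear receptors, stood in windows of Cited1 and Ltf and in 14% of all. These matches describe the letters of the windows only.

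Ltf, lactoferrin, was not above background with either probe. Probe A_51_P188141 read 13.9, 8.62 and 20.1 units with BSA, 9.44, 16.1 and 3.18 with Rspo2, 4.36, 4.21 and 4.32 with Wnt3a, and 3.98, 4.28 and 4.85 with both proteins. Probe A_52_P15388 stayed between 3.55 and 11.8 units.

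Other antimicrobial and acute phase proteins of milk, by contrast with Ltf, were mostly expressed, and several fell. Of 12 such genes 10 were detected, and 5 were called lower with Rspo2, 5 with Wnt3a and 7 with both proteins, with none called higher. Of all detected probes 0.721%, 2.52% and 5.08% were called in these comparisons, in either direction. The list was chosen with earlier results of these data known, and the study reports Saa3, C3, Hp and Lcn2 as lowered on these arrays. Its counts therefore cannot be read as an excess over these shares. Under the 2-fold limit, Lyz1 and Lyz2 were higher with Rspo2, by 0.63 and 0.42 (adjusted p 0.00749 and 0.00959). With Wnt3a they were higher by 0.52 and 0.43 (adjusted p 0.00326 and 0.00173). The medians of the detected genes were -0.81, -1.46 and -2.64 on the log2 scale. They take readings of Lcn2, Saa3, Hp and Camp that were not well above background at face value. Saa3 and Camp met the detection rule with BSA alone, and Hp with BSA and Rspo2. For these genes the rule favoured a fall, in the counts as in the medians. Lcn2, the siderophore-binding lipocalin, fell, with log2 changes of -4.34 with Rspo2 (adjusted p 7.16e-08), -5.89 with Wnt3a (2.74e-09) and -7.31 with both (1.37e-10), where it was above background on 1 of 3 arrays. C3, the central complement component, fell too, with log2 changes of -2.20, -3.11 and -3.98 (adjusted p 9.83e-05, 3.88e-06 and 7.61e-08). Saa3, an acute phase apolipoprotein, left the detected range, at least 5.16-fold lower with Rspo2 (adjusted p 0.00283) and at least 6.2-fold lower with Wnt3a (adjusted p 0.000353). Hp, haptoglobin, was at least 20.8-fold lower with Wnt3a (adjusted p 0.000117), and Camp, cathelicidin, at least 5.64-fold lower with both (adjusted p 3.95e-05). For Saa3, Hp and Camp the adjusted p come from limma on the readings at face value and do not test these bounds. Slpi, an inhibitor of neutrophil proteases, fell by 1.91 (adjusted p 8.15e-08) and Lbp, which binds lipopolysaccharide, fell by 1.67 (adjusted p 6.13e-07) with both proteins.

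The count of lowered genes in this list depended on the settings, which gave between 1 and 5 genes for Rspo2, between 1 and 7 for Wnt3a and between 3 and 8 for the pair. Restricting the test to probes above background on all 12 arrays, which drops genes that fell out of range, gave 1, 1 and 3. Normexp correction gave 2, 3 and 5, and the t-test of the methods after Benjamini-Hochberg adjustment 1, 4 and 4. Without Rspo2 replicate 3 the count with Rspo2 was 3.

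Most genes of the list around prolactin receptor and Stat5 signaling were detected. Of its 13 genes 12 were detected, among them the kinase Jak2, Stat5a and Stat5b, and none was called in any comparison. Over the whole array 22751 of 41174 probes were detected, and the comparisons called between 0.721% and 5.08% of the detected probes. Prl itself, the hormone, was not above background on any array. Cish, a feedback inhibitor induced by Stat5, was -0.57 with both proteins (adjusted p 0.000399), under the 2-fold limit. Socs2, another feedback inhibitor, was -0.52 (adjusted p 0.00135), and Socs1, a feedback inhibitor too, was 0.37 (adjusted p 0.0218), both also under the limit. In the same comparison Socs3 was -0.38 (adjusted p 0.00683), Stat5a -0.30 (adjusted p 0.0212) and Cav1 0.53 (adjusted p 0.000869). Of all detected probes 39.2% had an adjusted p under 0.05 there, so such values do not set the list apart.

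Of 16 other milk protein and milk fat globule genes 6 were detected: Mfge8, Xdh, Plin2, Spp1, Lpo and Cel. The casein genes Csn1s1 and Csn3 and the alpha-lactalbumin gene Lalba each passed the flag on 1 array, and Csn1s2a and Glycam1 on none. Among the detected genes the only call was Spp1, osteopontin, whose interaction was -1.06 (adjusted p 0.00268), with mean signals of 172000 units with BSA, 179000 with Rspo2, 147000 with Wnt3a and 104000 with both proteins. That value stood near the 2-fold limit, and the call was lost in 7 alternatives, among them quantile normalization (-0.68), slide as a fixed term (-0.92) and leaving out Rspo2 replicate 3 (-0.96). Of all detected probes 1.93% were called in the interaction, so 1 call among 6 genes does not set this list apart.

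Among 15 other alveolar and luminal transcription factors 10 were detected. Ehf and Tfap2c were not above background on any array, and Foxa1, which opens chromatin for the estrogen receptor, passed on 1 array. Id2, an inhibitor of helix-loop-helix factors that alveolar development needs, was the only call, with an interaction of -1.29 (adjusted p 0.000927). Its log2 differences were 0.68 with Rspo2 and 0.67 with Wnt3a but 0.06 with both proteins. The interaction called 1.93% of all detected probes, so 1 call among 10 genes does not set this list apart either.

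Of 14 other nuclear and membrane hormone receptors 11 were detected and none was called. The glucocorticoid receptor Nr3c1 read between 4340 and 4890 units as group means, whereas the estrogen receptor Esr2 was not above background on any array. Of 12 co-regulators of steroid receptors and relatives of Cited1, 11 were detected and none was called. As the comparisons called between 0.721% and 5.08% of all detected probes, no call among so few genes does not set these lists apart.

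Of 15 genes known to respond to estrogen or progesterone 9 were detected. Of all detected probes 2.52% were called with Wnt3a and 5.08% with both proteins. Ccnd1, cyclin D1, which is also a known target of Wnt signaling, rose by 1.08 with Wnt3a (adjusted p 0.00118) and by 1.70 with both proteins (adjusted p 2.2e-05). Cxcl12, a chemokine, fell by 1.29 with both (adjusted p 3e-06). The call of Ccnd1 with Wnt3a was lost in 6 alternatives, among them quantile normalization (0.82) and leaving out Wnt3a replicate 3 (0.98), and with slide as a fixed term both Ccnd1 calls were lost (0.81 and 1.25). Greb1, a gene directly bound by the estrogen receptor, passed the flag on 1 array and the receptor activator ligand Tnfsf11 on 3.

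**Figure D5:**
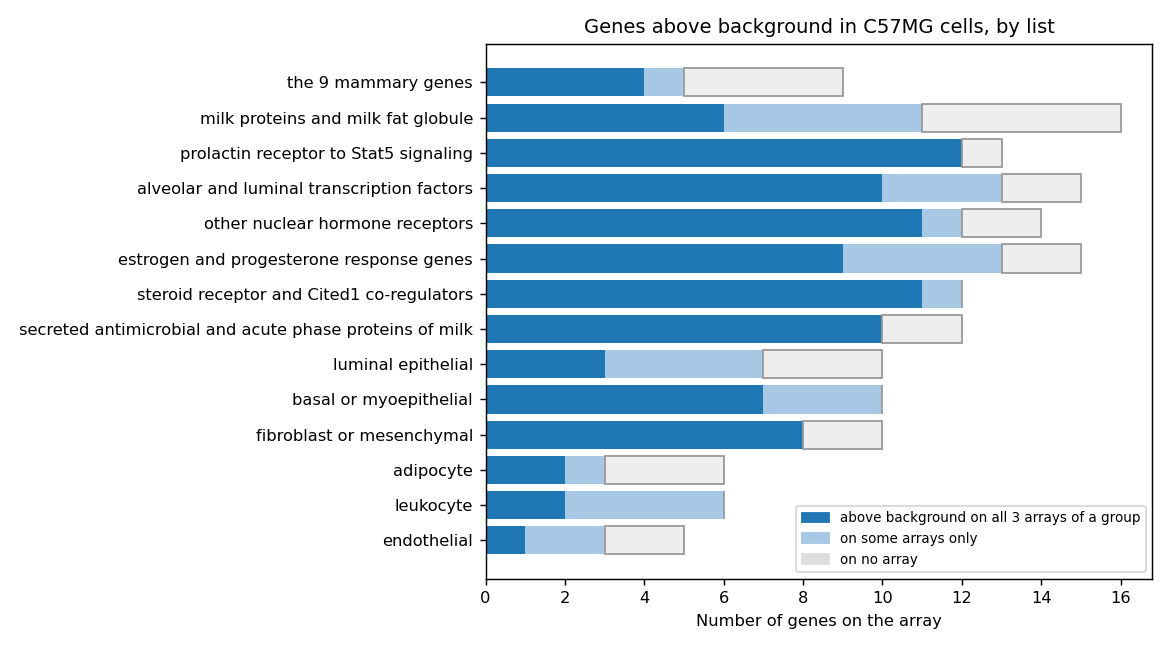
Number of genes of each list that were above background on all 3 arrays of a group (dark), on some arrays only (light) or on no array (grey). Of the 9 mammary genes 4 are dark, 1 is light and 4 are grey, whereas 12 of 13 genes of prolactin receptor to Stat5 signaling are dark.

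The markers of the labelled cell type were in part absent. Of 10 luminal epithelial markers 3 were detected (Krt8, Krt7 and Cldn3). Cdh1, which encodes E-cadherin, Cldn7 and Esrp1 were not above background on any array, while Krt18 passed on 3 and Epcam on 2 of 12 arrays. Of 10 basal or myoepithelial markers 7 were detected, including the keratins Krt5 and Krt14 and the smooth muscle actin Acta2, and of 10 fibroblast or mesenchymal markers 8, including Vim and Col1a1. Pdgfra fell by 1.37 with both proteins (adjusted p 9e-06). Krt14 rose by 1.24 (adjusted p 8e-06) and Krt8 fell by 1.15 (adjusted p 0.000366) with both, calls that were lost with slide as a fixed term (1.13 and -1.25), that of Krt8 in 5 alternatives in all. Below the 2-fold limit with both proteins were the basal markers Krt17 at -0.35 (adjusted p 0.00836) and Trp63 at -0.40 (adjusted p 0.0143). The basal markers Acta2 at 0.78 (adjusted p 7.26e-05) and Tagln at 0.95 (adjusted p 6.24e-05) went the other way, also below the limit. So did the luminal marker Krt7 at 0.75 (adjusted p 0.023). The interaction of Krt5 was 1.63 (adjusted p 0.0075), and -0.11 after normexp correction, 1 of 3 alternatives in which the call was lost. The part of these markers in the values above was not tested. Of all detected probes 2.52% were called with Wnt3a, 5.08% with both proteins and 1.93% in the interaction. Of the markers of other cells, 2 of 6 for adipocytes, 2 of 6 for leukocytes and 1 of 5 for endothelium were detected, with calls for Fabp4 (interaction -1.28, adjusted p 0.00387) and Cd3e (-1.01 with Wnt3a, adjusted p 0.0397), lost in 3 and 16 alternatives.

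For the members well above background on all 12 arrays, the probes with the most similar profile were sought among 18702 probes. The nearest to Esr1 A_52_P237077 over the 12 arrays were Camk1d (Pearson r 0.948), Retreg3 (0.943) and Slc20a2 (0.899). For Gata3 they were Hao1 (0.922), Pax3 (0.915) and Fau (0.909), and for Cited1 Clnk (0.859), BC019561 (0.838) and Arfgef3 (0.836). These are the highest of many values over 12 arrays and describe these arrays only.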

How the data were processed

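RNA from 12 C57MG cultures was measured on 1-colour Agilent whole mouse genome arrays. The authors extracted the signals with Agilent Feature Extraction 9.5.3.1, and the deposited scanner files hold processed intensity values per spot, background-subtracted, with flags. The deposited series table holds linear ratio values, each signal divided by the 75th percentile of its array by the authors, and its log2 was used as an alternative only. The genome build of the probe coordinates is not given in the sources used here.

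Control spots and uneven or outlier spots were left out (1327 of 520548 spot values), spots of a probe were averaged, and log2 values were taken minus the 75th percentile of each array. Probes flagged as well above background throughout some group were tested with limma 3.58.1 in R 4.3.3, with 4 group means over 12 arrays and Benjamini-Hochberg adjustment over 22751 probes. The scaling and 2-fold limit follow the study's methods, with limma in place of their t-test. The filter is of the same form as theirs, with the scanner's flag as the background criterion. The fit was tested on simulated data. The number of arrays limits the precision. Symbols came from RefSeq accessions for 22951 probes and from the files for 11746.

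The 9 genes and the other lists were chosen with earlier results of these data known. All probes of the 9 genes are named. Of the lists, every gene called against BSA or in the interaction was eligible to be named, by its brightest probe, with set milk genes and markers, and other genes named were chosen after their values were seen. A group with no array above background enters a fold as the lowest accepted signal of each array, or as its own signal where that is higher. That signal is the lowest accepted for any probe on the array and need not be the limit of a given spot. Alternatives covered background correction, scaling, filters, test, slide, the replicate number as a block and leaving out each array.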

Additional observations from a re-analysis of the deposited data

How the results depend on the processing

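The number of called probes among the 5 detected probes of these genes stayed 0 in 30 alternatives for each comparison of groups and in 26 of 27 for the interaction, which gave 1 (range over left-out arrays 0 to 1) without replicate 1 of the group with both proteins, as described for Esr1 A_51_P474658. Of 735 alternative values of the 25 log2 changes, 52 had the opposite sign of the value reported and 37 moved by more than 1 SD between arrays. Asking for a signal above background on all 12 arrays left 3 of the 15 probes, and other detection rules 5 or 6, Wap A_51_P407704 being the 1 added. Without the 2-fold limit no call was gained. Median scaling moved the median of all detected probes by up to 0.327 and brought Gata3, Prlr and Cited1 to adjusted p of 0.00368, 0.0195 and 0.0385 with Wnt3a, at 0.81, 0.54 and 0.47. Of 35 calls in the other lists, 11 held in every alternative. The interaction of Krt5 reversed to -0.11 after normexp correction, and the cause was not tested. Arrays with the same replicate number (18 pairs) deviated from their group means with r from -0.413 to 0.271. Arrays with different numbers (36 pairs) gave r from -0.399 to 0.425. These ranges show no pairing but cannot exclude it, and the labels do not state it. With the replicate block 0 probes were called in each comparison. The t-test and the fit on the compared arrays alone were not run for the interaction. Signals near background limit what can be said of Pgr, Elf5, Csn2, Wap and Ltf.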
